A study of Mus musculus with 30 samples.

Results

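Adipose tissue macrophages (ATMs) of *Ob/Ob* mice given the GLP-1R agonist beinaglutide were compared directly with ATMs of *Ob/Ob* mice given an anti-IL-17A antibody. The comparison uses 6 of the 30 libraries of the series, 3 per treatment, chosen by their labels, and covers all 17059 genes of the ATM table. The study asked whether an incretin mimetic and blockade of a cytokine change the inflamed fat of leptin-deficient mice that carry *Shp2* E76K/+ blood cells, and these libraries set one agent against the other. Every recipient in both groups was an *Ob/Ob* mouse on the C57BL/6J background, 12 to 14 weeks old and of either sex per the labels, irradiated with 700 and then 400 cGy. Each received equal numbers of CD45.2+ BM cells from *Shp2* E76K/+;LysM-Cre+ donors and CD45.1+ Boy/J competitor cells. From 8 weeks after transplantation, beinaglutide was injected s.c. at 3 mg/kg, or the antibody i.p. at 200 µg per mouse 3 times a week, for 30 days. The vehicle-treated *Ob/Ob* group (Vehicle), with the same donor cells, serves as background here, and the WT recipients and the mice given both agents (Combo) only appear in 1 plot and in the fit. LysM-Cre is active in myeloid cells, so the mutation is carried by a subset of the grafted cells, and RNA of mutant, competitor and surviving host cells was not told apart by sorting F4/80+ cells from visceral fat.

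GLP-1 is a gut hormone that acts through a receptor coupled to cAMP, and agonists of that receptor lower food intake and body weight. IL-17A is a cytokine of Th17 and gamma-delta T cells whose receptor, IL-17RA paired with IL-17RC, signals through the adaptor Act1 to NF-kB and C/EBP factors and induces neutrophil and monocyte chemokines and IL-6, above all in fibroblasts and epithelia. Macrophages of obese fat take up and store the lipid of adipocytes, present antigen and divide locally.

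The 6 libraries held 25673711 to 45300263 counts on genes, the smallest in GLP-1R agonist replicate 2. The median coefficient of variation among the 3 libraries of a group was 51.8% and 52.5% for genes of up to 100 normalized counts and 3.03% and 3.17% above 10000, with the agonist and the antibody, so small differences are firm only at high counts. Levels are given as normalized counts, that is, after correction for TMM-scaled depth, on the scale of an ATM library of mean size among the 15. No 2 libraries of a group agreed within counting noise, since the chi-square per degree of freedom was 14.2 to 26.5. The macrophage markers *Adgre1* (F4/80), *Cd68* and *Lyz2* were abundant in all 6 libraries, and RNA of fibroblasts, other leukocytes, mesothelium and the male reproductive tract was present as well. *Xist*, the RNA of the inactive X chromosome, was at 0, 0 and 0 normalized counts with the agonist and 0, 40.6 and 0 with the antibody, against 998 to 1533 in Vehicle. *Ddx3y*, a Y-linked helicase, had 5156, 5731 and 5459 against 3093, 2979 and 2671 (log2 fold change 0.90, adjusted p = 0.00455, edgeR) and 247 to 537 in Vehicle. Except for the few *Xist* counts of antibody replicate 2, both treated groups thus lacked *Xist* and expressed *Ddx3y* while Vehicle expressed both, although the labels describe the groups as matched for sex, and any difference from Vehicle below includes that one. In bulk RNA, fewer cells of a type and less RNA per cell cannot be told apart.

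Of the 17059 genes tested, 1382 (8.1%) differed between the treatments, 833 (4.88%) higher with the GLP-1R agonist and 549 (3.22%) higher with the anti-IL-17A antibody. A gene was called at a false discovery rate below 0.05 by edgeR's quasi-likelihood test with a log2 fold change beyond 1 in either direction. Positive log2 fold changes are higher with the agonist, and where values are set against each other those of the 3 agonist libraries come first and those of the 3 antibody libraries second. For every called gene whose fold change is given below, the libraries of the 2 groups did not overlap. Without the fold-change limit 5084 genes (29.8%) passed, 2752 (16.1%) higher with the agonist and 2332 (13.7%) higher with the antibody. The libraries of the groups did not overlap for 8162 genes (47.8%).

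**Figure D1:**
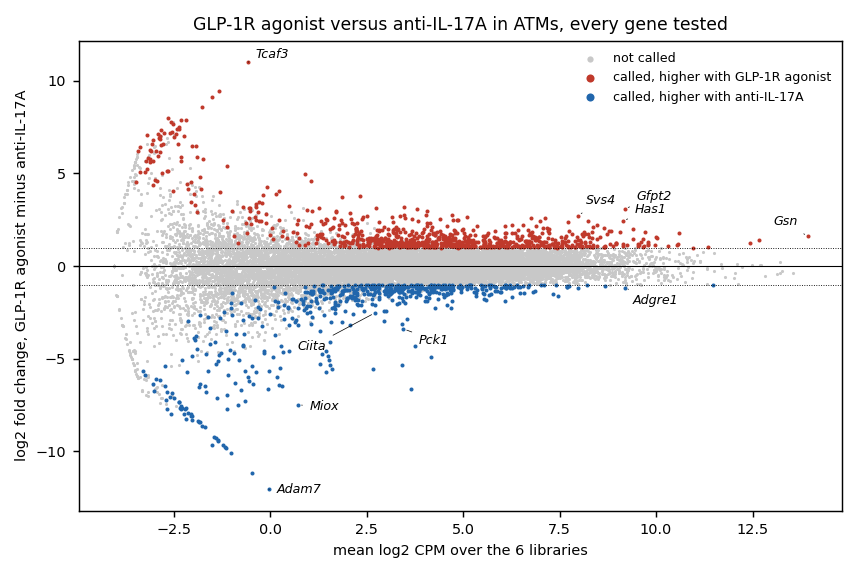
Each point is 1 of the 17059 genes, with its mean log2 CPM over the 6 libraries (horizontal axis) and its log2 fold change, GLP-1R agonist minus anti-IL-17A (vertical axis); the 833 genes called higher with the agonist are red, the 549 called higher with the antibody blue, and dotted lines mark log2 fold changes of 1 and -1. The called genes of high abundance, such as *Gsn*, *Gfpt2* and *Has1*, lie above zero, *Adgre1* lies below it, and the arms at the far left are genes with few or no counts in one group.

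The most significant difference of all genes was that of *Gfpt2*. It is described here with genes for the making of hyaluronan, the large sugar polymer of loose connective tissue. Hyaluronan itself was not measured. *Gfpt2* (chromosome 11, 49794178 to 49838613, GRCm38) encodes an isoform of the enzyme that commits glucose to amino sugars. It had 57526, 56942 and 55358 normalized counts in the 3 agonist libraries and 6714, 6380 and 6916 in the 3 antibody libraries. The level was 8.49-fold higher with the agonist (log2 fold change 3.08, standard error 0.0482, adjusted p = 2.55e-15, edgeR), the smallest p-value in the table, and Vehicle lay between them at 9826, 9848 and 10724. Because this pathway was noticed in these data, the members below were listed after the values were seen.

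Further along the same pathway, *Uap1*, which makes the activated amino sugar, had 14386, 14634 and 13688 normalized counts with the agonist and 4703, 4516 and 4965 with the antibody (log2 fold change 1.59, standard error 0.0549, adjusted p = 8.31e-12, edgeR). *Ugdh*, which makes UDP-glucuronate, had 13173, 13692 and 14403 against 3628, 3563 and 3980 (log2 fold change 1.89, standard error 0.0715, adjusted p = 2.98e-11, edgeR). The synthases that join both sugars at the plasma membrane differed as well. *Has1* had 43842, 43899 and 43943 normalized counts with the agonist and 8390, 7933 and 7847 with the antibody, with no overlap and nearly equal values among the agonist libraries (log2 fold change 2.45, standard error 0.0483, adjusted p = 2.45e-14, edgeR). *Has2* had 1292, 1528 and 1266 against 165, 218 and 105 (log2 fold change 3.06, standard error 0.255, adjusted p = 2.05e-07, edgeR).

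Proteins that bind and cross-link hyaluronan followed. *Tnfaip6* (TSG-6), which transfers heavy chains onto hyaluronan, had 28150 ± 623 normalized counts (SD, n = 3) with the agonist and 7682 ± 104 with the antibody (log2 fold change 1.87, standard error 0.0473, adjusted p = 2.96e-13, edgeR). *Ptx3*, a pentraxin that joins the same complex, had 8910 ± 298 against 1468 ± 158 (log2 fold change 2.60, standard error 0.0842, adjusted p = 4.47e-12, edgeR), and the proteoglycan *Vcan* (versican) differed by 1.69 on the log2 scale (adjusted p = 2.94e-05, edgeR). Of the 14 tested genes of this list, 8 were called higher with the agonist, against 4.88% of all genes, and 1, *Hmmr*, higher with the antibody. *Hmmr* is a hyaluronan receptor that is also a mitotic spindle protein. *Gnpnat1*, *Ugp2* and *Cd44* did not pass, with log2 fold changes of 0.08, 0.11 and -0.001. The list's median log2 fold change was 1.64, against -0.01 over all genes. Vehicle did not hold one place in this group, since *Gfpt2*, *Uap1*, *Ugdh*, *Has1* and *Tnfaip6* were lower in Vehicle than with the agonist whereas *Has2* (2851 to 3349) and *Ptx3* (146248 to 151033) were higher in Vehicle than in either treated group.

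Fibroblast genes were higher with the agonist too. The summed level of the 17 fibroblast and mesenchymal markers was 54650, 55350 and 55880 CPM in the agonist libraries and 26130, 26470 and 26610 CPM in the antibody libraries, 2.09-fold apart. A sum of this kind weighs abundant members such as *Gsn* most. Of these markers, 6 were called higher with the agonist, against 4.88% of all genes, and none higher with the antibody. The false discovery rate alone was passed by 16, all higher with the agonist, against 16.1% of all genes (median log2 fold change 0.94). The collagens *Col1a1* and *Col1a2* lay inside the limit, with log2 fold changes of 0.28 (adjusted p = 0.000606) and 0.50 (adjusted p = 1.75e-06, edgeR). *Col3a1* did not pass (log2 fold change 0.06, adjusted p = 0.496, edgeR). *Gsn*, the actin-severing protein gelsolin, was the most abundant called gene, with 904300 ± 13000 normalized counts against 297300 ± 5850 (log2 fold change 1.60, standard error 0.0321, adjusted p = 2.45e-14, edgeR). *Dcn* (decorin), a small proteoglycan on collagen fibrils, had 354340, 361739 and 350322 normalized counts with the agonist and 136285, 131144 and 129153 with the antibody (log2 fold change 1.43, standard error 0.0279, adjusted p = 2.45e-14, edgeR). *Pdgfra*, the receptor that marks fat stroma, had 10883, 10706 and 12207 against 4174, 4263 and 4607 (log2 fold change 1.37, standard error 0.162, adjusted p = 9.08e-06, edgeR). *Pi16* and *Clec3b*, markers of adventitial fibroblasts, had log2 fold changes of 1.10 (adjusted p = 7.15e-09) and 1.11 (adjusted p = 1.13e-06), and the microfibril gene *Mfap5* one of 1.02 (adjusted p = 2.4e-09, edgeR). *Mfap5* was inside the limit with DESeq2, with its size factors, with at least 10 counts in every library and without antibody replicate 3. In Vehicle the summed level was 11650 to 12520 CPM, below both treated groups. The hyaluronan genes above, and the cytokine and matrix genes below, moved in the direction of this sum, and its part in their differences was not tested.

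Genes of the basement membrane, listed after the values were seen, showed the same direction for all 10 tested members (median 1.19). Of these, 9 were called higher with the agonist, against 4.88% of all genes. *Col4a1*, a type IV collagen chain, had 73950, 71128 and 75376 normalized counts with the agonist and 33180, 32506 and 34583 with the antibody (log2 fold change 1.14, standard error 0.0558, adjusted p = 5.1e-10, edgeR). *Nid1* (nidogen), which bridges collagen IV and laminin, had 59314, 57254 and 60651 against 18219, 19190 and 21700 (log2 fold change 1.58, standard error 0.0679, adjusted p = 1.11e-10, edgeR). The laminin chains *Lama2* and *Lamb1* had log2 fold changes of 2.08 (adjusted p = 4.41e-06) and 1.41 (adjusted p = 1.68e-10, edgeR). *Thbs1* (thrombospondin-1), a matrix protein and one of the 6 most abundant called genes higher with the agonist, had 94854, 93682 and 98302 against 25548, 27091 and 29907 normalized counts (log2 fold change 1.80, standard error 0.0643, adjusted p = 1.5e-11, edgeR).

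Complement genes differed by component. *C3*, the central component, had 292199, 271270 and 279021 normalized counts with the agonist and 115658, 120262 and 123839 with the antibody (log2 fold change 1.23, standard error 0.0373, adjusted p = 2.31e-12, edgeR), and *C4b* had 61542, 60216 and 61944 against 28768, 29600 and 29358 (log2 fold change 1.07, standard error 0.0627, adjusted p = 4.48e-09, edgeR). *Serping1*, the C1 inhibitor, which is outside the list, differed by 1.00 on the log2 scale (adjusted p = 8.06e-13, edgeR), just past the limit. It was inside the limit with DESeq2, with its size factors, with at least 10 counts in every library and with the 6 libraries alone. The same held without agonist replicate 2 or antibody replicate 1 or 3. *C1qc*, a subunit of the recognition protein C1q that macrophages make, was lower with the agonist at 29076 to 30570 against 41347 to 42726 (log2 fold change -0.50, adjusted p = 1.7e-08, edgeR), inside the fold-change limit. Of 13 tested members, 2 were called, both higher with the agonist, against 4.88% of all genes. The false discovery rate was passed higher with the antibody by 8, against 13.7% of all genes (median -0.42, or 0.11 scaled to macrophage genes, as explained next).

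Macrophage genes were higher with the anti-IL-17A antibody. The 15 macrophage identity genes summed to 11780, 12090 and 12190 CPM in the agonist libraries and 17250, 17430 and 17490 CPM in the antibody libraries, 1.45-fold apart, with Vehicle at 4561 to 4813 CPM. Of these genes, 3 were called, against 3.22% of all genes, and 13 passed the false discovery rate alone, against 13.7% (median -0.64); *Mertk* and *Cd14* passed it in the other direction. *Adgre1*, whose product F4/80 was the sort marker, had 12445, 13000 and 13372 normalized counts with the agonist and 29674, 28752 and 28678 with the antibody (log2 fold change -1.17, standard error 0.124, adjusted p = 3.16e-06, edgeR). *Fcgr1*, the high-affinity IgG receptor CD64, had 639, 648 and 606 against 1627, 1688 and 1658 (log2 fold change -1.39, standard error 0.0967, adjusted p = 2.36e-08, edgeR). *Sirpa*, the receptor for the "don't eat me" signal CD47, had 9286, 10120 and 8921 against 18820, 20095 and 20651 (log2 fold change -1.07, standard error 0.097, adjusted p = 5.28e-07, edgeR). *Lyz2* (lysozyme), *Tyrobp* and *Fcer1g*, both signaling adaptors, and the protease *Ctss* were lower with the agonist inside the limit, with log2 fold changes of -0.52, -0.78, -0.75 and -0.64 and adjusted p-values of 4.99e-09, 4.26e-09, 5.36e-09 and 1.91e-10 (edgeR). *Cx3cr1*, the fractalkine receptor, had 132, 81.3 and 40.1 against 188, 214 and 364 (log2 fold change -1.59, adjusted p = 0.033, edgeR), and its call was lost in the fit with the replicate block and when agonist replicate 2 or 3, or antibody replicate 3, was left out.

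Since the libraries differed in this summed level, the counts were also scaled to it, a choice made after the values were seen. The median log2 fold change of all genes then moved from -0.01 to 0.51, and 2921 genes were called higher with the agonist and 205 higher with the antibody, so the share higher with the agonist went from 60.3% to 93.4%. Relative to macrophage genes, differences in favor of the antibody are smaller and those in favor of the agonist larger than the values given here.

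Other abundant genes higher with the antibody were *Tmsb4x* (thymosin beta-4, which binds actin monomers), with 65830 to 67473 normalized counts against 125093 to 140478 (adjusted p = 6.94e-11, edgeR), 2-fold apart, *Ckb* (creatine kinase B), *Cyth4* (an Arf exchange factor of leukocytes) and *Slc37a2* (a sugar-phosphate transporter of macrophages). *Slc37a2* had 5001, 5155 and 4598 against 10198, 10136 and 11030, against 307, 344 and 254 in Vehicle (log2 fold change -1.09, standard error 0.123, adjusted p = 6.07e-06, edgeR). *Cyth4* had 5459, 5232 and 5946 against 13048, 13234 and 11945 (log2 fold change -1.20, standard error 0.0899, adjusted p = 6.37e-08, edgeR). With *Adgre1* and *Sirpa* these were the 6 most abundant called genes higher with the antibody, and *Tmsb4x* and *Ckb* were so close to the limit that leaving out 1 library ended their call.

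Genes of lipid-associated macrophages, the cells that surround dying adipocytes, were lower with the agonist by amounts inside the limit. None of the 17 was called, 14 passed the false discovery rate higher with the antibody and 2, *Fabp4* and *Plin2*, higher with the agonist (median -0.42, or 0.11 scaled to macrophage genes). *Lpl* (lipoprotein lipase) had 62045, 61305 and 59481 normalized counts with the agonist and 118345, 116092 and 117435 with the antibody (log2 fold change -0.94, standard error 0.0516, adjusted p = 1.84e-09, edgeR). *Lipa*, the lysosomal acid lipase, had 17622, 18582 and 18700 against 35070, 35049 and 36271 (log2 fold change -0.95, standard error 0.0512, adjusted p = 1.48e-09, edgeR), and it was called with DESeq2 and with its size factors. *Trem2*, the lipid receptor of these cells, had 10571, 10349 and 10453 against 17483, 17573 and 17115 (log2 fold change -0.73, standard error 0.0782, adjusted p = 3.28e-06, edgeR). For all 3 genes Vehicle was lower than both treated groups, at 9000 to 11119, 2931 to 3393 and 1341 to 1866.

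The list of resident, perivascular-type macrophages went partly the other way. Of 15 tested members, 4 were called higher with the agonist, against 4.88% of all genes, and none higher with the antibody. *Lyve1*, a hyaluronan receptor that these macrophages share with lymphatic endothelium, had 1203, 1269 and 984 normalized counts with the agonist and 422, 298 and 351 with the antibody (log2 fold change 1.69, standard error 0.195, adjusted p = 7.6e-06, edgeR). *Cbr2*, a carbonyl reductase, had 3927, 3642 and 3353 against 1466, 1388 and 1342 (log2 fold change 1.38, standard error 0.0839, adjusted p = 5.8e-09, edgeR), and the C-type lectins *Cd209f* and *Cd209g* had log2 fold changes of 1.26 (adjusted p = 1.89e-05) and 1.64 (adjusted p = 0.00479, edgeR), the latter not called in a fit of only the 6 libraries. *Mrc1* (CD206) did not pass, at 4117 to 4361 against 6074 to 6329 without overlap (adjusted p = 0.0948, edgeR). The spread in this test was estimated over all 15 ATM libraries, not these 6 alone. *Igf1* was higher with the antibody inside the limit (log2 fold change -0.49, adjusted p = 7.11e-06, edgeR). The list's median of 0.41 was 0.09 without antibody replicate 2 and -0.16 among genes with at least 10 counts in every library.

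Markers of M2-like macrophages had no common direction, with 1 of 17 called higher with the agonist (*Pdcd1lg2*) and 1 higher with the antibody (*Chil4*, a gene with few counts). Over all genes 8.1% were called in either direction. *Retnla*, an alternative-activation marker, had 3115, 3075 and 3323 normalized counts with the agonist and 6070, 6034 and 5896 with the antibody (log2 fold change -0.92, standard error 0.0541, adjusted p = 4.44e-09, edgeR), and *Mmp12*, macrophage elastase, 31789 to 33743 against 52718 to 55901 (log2 fold change -0.73, adjusted p = 1.96e-08, edgeR). Both lay inside the limit.

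**Figure D2:**
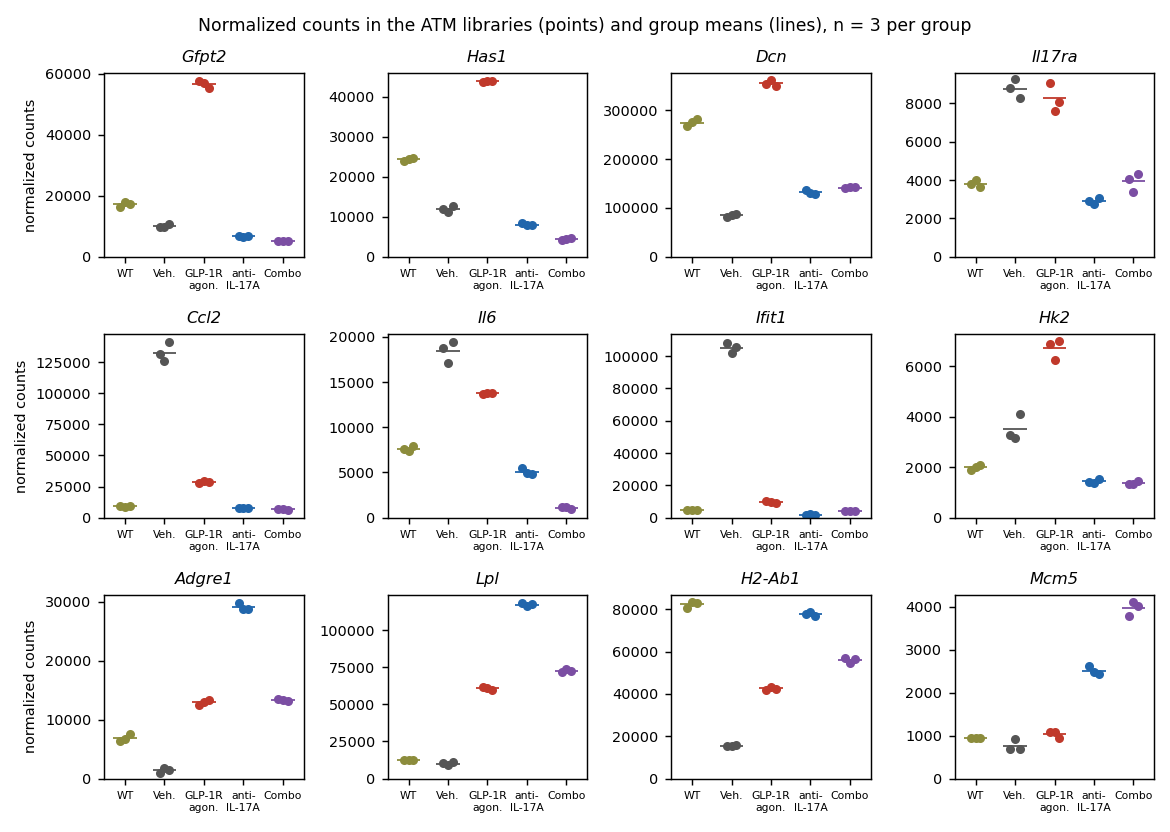
Normalized counts (vertical axes, from zero) of 12 genes in the 15 ATM libraries, 3 per group: points are libraries and lines are group means. *Gfpt2*, *Has1*, *Dcn*, *Il17ra*, *Ccl2*, *Il6*, *Ifit1* and *Hk2* are higher in every GLP-1R agonist library than in every anti-IL-17A library, and *Adgre1*, *Lpl*, *H2-Ab1* and *Mcm5* are lower in every one.

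MHC class II genes, by which macrophages and dendritic cells present antigen to CD4+ T cells, were higher with the antibody wherever they passed. *Ciita*, the transactivator that switches the class II genes on, had 88.6, 90.8 and 91.6 normalized counts with the agonist and 488, 408 and 670.0 with the antibody (log2 fold change -2.53, standard error 0.22, adjusted p = 3.15e-07, edgeR). The agonist libraries were in the range of Vehicle (76.3 to 92.2). *H2-DMb1* and *H2-DMa*, chains of the chaperone that loads peptides, were called as well (log2 fold change -1.42, adjusted p = 6.74e-08, and log2 fold change -1.02, adjusted p = 0.00012, edgeR), although the call of *H2-DMa*, with 10.4% of its exonic bases inside exons of a second gene, was lost without agonist replicate 3 or antibody replicate 1. The structural genes followed inside the limit. *H2-Ab1* had 41744, 43384 and 42473 against 77892, 78539 and 76690 (log2 fold change -0.87, standard error 0.0266, adjusted p = 2.04e-12, edgeR), *Cd74*, the invariant chain, a log2 fold change of -0.95 (adjusted p = 3.18e-11), *H2-Aa* -0.89 (adjusted p = 4.47e-11) and *H2-Eb1* -0.94 (adjusted p = 5.38e-10, edgeR). Of the 11 members, 3 were called, all higher with the antibody, against 3.22% of all genes. The false discovery rate was passed by 7, also all higher with the antibody, against 13.7% of all genes (median -0.90, or -0.36 scaled to macrophage genes, where only *Ciita* was called).

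Genes of DNA replication and mitosis had the same direction, higher with the antibody, with none passing in the other direction (median -0.83). Of 22, 7 were called, against 3.22% of all genes, and 15 passed the false discovery rate, against 13.7%. *Mcm5*, a subunit of the replicative helicase, had 1082, 1077 and 946 normalized counts with the agonist and 2607, 2487 and 2434 with the antibody (log2 fold change -1.28, standard error 0.105, adjusted p = 1.75e-07, edgeR). *Top2a* (topoisomerase II alpha) had 613, 504 and 601 against 1328, 1234 and 1600 (log2 fold change -1.27, standard error 0.133, adjusted p = 2.49e-06, edgeR), and *Birc5* (survivin) 346, 339 and 341 against 978, 947 and 964 (log2 fold change -1.49, standard error 0.157, adjusted p = 2.52e-06, edgeR). *Tyms*, *Rrm2*, *Cdk1* and *Aurkb* were the other called members, with log2 fold changes from -1.07 to -1.51; leaving out 1 library ended the call of *Rrm2* or *Aurkb*. Scaled to macrophage genes the median was -0.30 and none was called.

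The target of the antibody and its receptor were read next. *Il17a* itself (chromosome 1, 20730905 to 20734496) had only 7, 17.6 and 0.9 normalized counts in the agonist libraries and 36.4, 33.7 and 27.2 in the antibody libraries, both under the 172 to 278 of Vehicle. The difference between the treatments (log2 fold change -1.98, standard error 0.699, adjusted p = 0.0443, edgeR) was lost when any 1 library except agonist replicate 2 was left out, so these few counts do not fix an order. *Il17ra*, the receptor chain, had 9060, 7612 and 8078 normalized counts with the agonist, like Vehicle (8775, 9241 and 8259), and 2888, 2757 and 3048 with the antibody (log2 fold change 1.51, standard error 0.0897, adjusted p = 4.99e-09, edgeR). *Il17rc* did not pass, at 527 to 795 against 430.5 to 556 (log2 fold change 0.34, adjusted p = 0.15, edgeR). Of 21 genes for IL-17 cytokines, receptors and adaptors, only *Il17ra* and *Il17a* were called, 1 in each direction, a share near the 8.1% of all genes. The false discovery rate was passed by 1 higher with the antibody and by 7 higher with the agonist, the latter against 16.1% of all genes. *Nfkbiz*, a coactivator that IL-17 signaling needs, was among these 7 with a log2 difference of 0.50 (edgeR adjusted p = 4.88e-08).

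Most genes that IL-17 induces in many cell types were lower with the antibody than with the agonist. Of 24 tested, 11 were called higher with the agonist, against 4.88% of all genes, and 1 higher with the antibody (median 0.92). Without the fold-change limit 18 passed higher with the agonist, against 16.1% of all genes. *S100a8* and *S100a9* (log2 fold change -0.89, adjusted p = 2.53e-08, edgeR) passed higher with the antibody. *Lcn2*, *Cebpb*, *Mmp13* and *Ccl20* did not pass, with log2 fold changes of -0.18, -0.58, -0.40 and 0.98. The monocyte chemokine *Ccl2* (chromosome 11, 82035571 to 82037453) had 28240, 29112 and 28728 normalized counts with the agonist, 8037, 7723 and 7830 with the antibody and 131406, 125826 and 140781 in Vehicle (log2 fold change 1.87, standard error 0.0508, adjusted p = 7.03e-13, edgeR). Its neighbor *Ccl7* had 22113, 23086 and 23744 against 5276, 5391 and 5221, against 73027 to 86685 in Vehicle (log2 fold change 2.12, standard error 0.0607, adjusted p = 1.17e-12, edgeR). Both treated groups lay under Vehicle, the antibody group furthest.

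The neutrophil chemokine *Cxcl1* had 50286, 52018 and 55017 normalized counts with the agonist and 13983, 14967 and 15334 with the antibody (log2 fold change 1.83, standard error 0.0574, adjusted p = 3.22e-12, edgeR), and here the agonist libraries came near Vehicle (55996 to 62727). *Cxcl3* and *Cxcl5*, which act on the same receptor, had log2 fold changes of 1.98 (adjusted p = 3.98e-08) and 2.61 (adjusted p = 7.11e-06), and the eosinophil chemokine *Ccl11* one of 1.62 (adjusted p = 1.96e-11, edgeR). *Il6* (chromosome 5, 30013114 to 30019981) had 13731, 13787 and 13793 normalized counts with the agonist and 5533, 4924 and 4838 with the antibody (log2 fold change 1.43, standard error 0.078, adjusted p = 1.8e-09, edgeR). *Csf2* (GM-CSF) had 244, 230.3 and 289.7 against 70.8, 91.1 and 87, with 12% of its exonic bases inside exons of a second gene (log2 fold change 1.62, standard error 0.196, adjusted p = 1.14e-05, edgeR). *Ptgs2* (COX-2), *Cebpd* and the feedback inhibitor *Socs3* were the remaining called genes higher with the agonist, with log2 fold changes of 1.34, 1.30 and 1.06 and adjusted p-values of 1.96e-09, 5.7e-09 and 2.59e-11 (edgeR), *Cebpd* with 15% of its exonic bases overlapping a second gene. Vehicle was above both treated groups for 10 of the 12 called genes of this list. The exceptions were *Cebpd*, where Vehicle (6075 to 6957) overlapped the agonist group, and *Socs3*, where Vehicle (14816 to 16403) was below it.

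The member called in the other direction was *S100a8*, a calcium-binding protein stored in neutrophils, with 1505, 1531 and 1552 normalized counts with the agonist and 3584, 3370 and 3375 with the antibody (log2 fold change -1.17, standard error 0.0362, adjusted p = 2.76e-12, edgeR). It moved with the neutrophil list (median -0.89, or -0.36 scaled to macrophage genes). Of that list 6 of 14 were called higher with the antibody, against 3.22% of all genes, and none higher with the agonist. The neutrophil markers summed to 273 to 287 CPM with the agonist and 489 to 508 CPM with the antibody, both far under the 21980 to 23280 CPM of Vehicle. *Ngp*, *Ltf* and *Camp*, granule proteins made in immature neutrophils, had log2 fold changes of -1.76 (adjusted p = 7.47e-12), -1.86 (adjusted p = 9.94e-11) and -1.82 (adjusted p = 9.27e-09, edgeR).

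**Figure D3:**
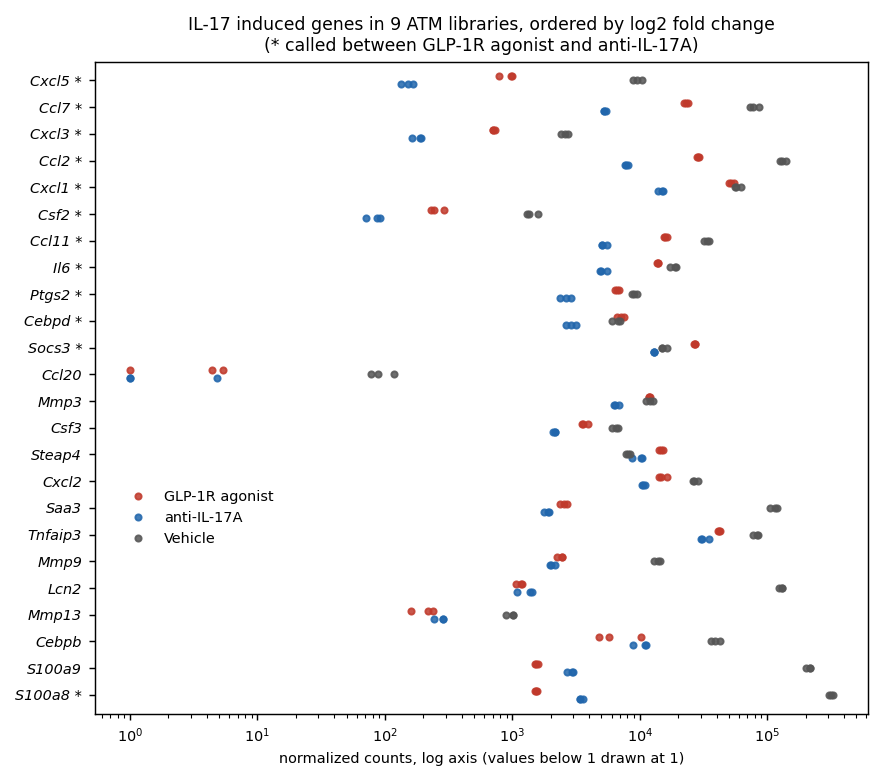
Normalized counts (horizontal log axis) of the 24 tested IL-17 induced genes in the 3 libraries each of the GLP-1R agonist, anti-IL-17A and Vehicle groups, ordered by the log2 fold change between the treatments, with called genes marked by a star. From *Cxcl5* at the top to *Socs3* the agonist libraries lie above the antibody libraries, and for *S100a8* at the bottom below them, with Vehicle to the right of both for most genes.

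The promoters of called members are shown because they hold the kind of site through which the list's signal is known to act. The 250 bases before the RefSeq start (GRCm38.p6) were searched on both strands for an NF-kB type motif, which reads GGG, any 2 bases, TTTCC, and which 378 of 27025 promoters hold (1.4%). Of the 17 listed IL-17 induced genes with a promoter in the table, 7 held it, and the 3 called ones among them are printed from 5′ to 3′ on the gene's strand, with the match in capitals, reversed where it lies on the other strand. *Ccl2* and *Ccl7* are not in that table.
Cxcl1, chr5:90890995-90891244, plus strand: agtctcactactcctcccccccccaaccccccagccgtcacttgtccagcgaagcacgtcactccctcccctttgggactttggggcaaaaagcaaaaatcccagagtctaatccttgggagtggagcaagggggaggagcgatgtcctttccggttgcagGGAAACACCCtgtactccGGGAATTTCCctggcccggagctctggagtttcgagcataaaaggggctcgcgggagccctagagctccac
Cxcl3, chr5:90785851-90786100, plus strand: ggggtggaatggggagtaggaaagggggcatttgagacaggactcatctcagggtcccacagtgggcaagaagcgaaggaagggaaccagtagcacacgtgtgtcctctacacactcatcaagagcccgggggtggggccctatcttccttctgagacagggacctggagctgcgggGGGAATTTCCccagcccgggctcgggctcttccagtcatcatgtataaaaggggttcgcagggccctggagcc
Il6, chr5:30012864-30013113, plus strand: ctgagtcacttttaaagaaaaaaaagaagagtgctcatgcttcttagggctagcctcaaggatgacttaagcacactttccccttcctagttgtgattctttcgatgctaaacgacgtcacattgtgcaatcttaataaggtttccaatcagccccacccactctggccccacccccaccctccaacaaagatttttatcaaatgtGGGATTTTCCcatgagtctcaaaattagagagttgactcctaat
*Cxcl1* has 2 matches, 1 on each strand, and *Cxcl3* and *Il6* have 1 each. The genes with a match but no call were *Cxcl2*, *Ccl20*, *Steap4* and *Tnfaip3*.

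Most genes of the TNF and NF-kB list passed the false discovery rate in the same direction, by smaller amounts. This list holds receptors and pathway members as well as targets. Its sum was 6639 to 6779 CPM with the agonist, 4537 to 4604 CPM with the antibody and 14100 to 15080 CPM in Vehicle. Only *Icam1*, the leukocyte adhesion molecule, was called of the 23 genes, with 29100, 30574 and 29796 normalized counts with the agonist and 13696, 13032 and 13529 with the antibody (log2 fold change 1.15, standard error 0.0442, adjusted p = 3.18e-11, edgeR), and 11.7% of its exonic bases also lie in exons of a second gene. Over all genes 8.1% were called. Without the fold-change limit 20 passed higher with the agonist, against 16.1% of all genes, and 2 higher with the antibody (median 0.59). Scaled to macrophage genes 16 were called. *Rela*, the NF-kB subunit p65, and the chemokine *Ccl4* were among the 20, with log2 fold changes of 0.77 (adjusted p = 5.17e-08) and 0.70 (adjusted p = 7.87e-09, edgeR).

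Interferon-stimulated genes divided into both directions. *Ifnb1*, the gene for interferon-beta, had 587, 671 and 657 normalized counts with the agonist, 64.5, 21.4 and 53.5 with the antibody and 1282 to 1485 in Vehicle (log2 fold change 3.77, standard error 0.336, adjusted p = 4.5e-07, edgeR). Of 25 genes that type I interferon induces, 6 were called higher with the agonist, against 4.88% of all genes (median 0.23). Higher with the antibody were 3, against 3.22% of all genes. *Ifit1*, which binds foreign RNA caps, had 10124, 9896 and 9347 normalized counts with the agonist and 1676, 2021 and 1712 with the antibody (log2 fold change 2.44, standard error 0.0637, adjusted p = 4.56e-13, edgeR). *Oasl1* had 6507, 6514 and 6439 against 1892, 1922 and 1878 (log2 fold change 1.77, standard error 0.0864, adjusted p = 4.7e-10, edgeR), and *Rsad2* (viperin) 7994, 8463 and 7333 against 3602, 3464 and 3432 (log2 fold change 1.18, standard error 0.0613, adjusted p = 1.01e-09, edgeR). *Ifit2*, *Mx2* and the RNA sensor *Ifih1* (MDA5) were the other members higher with the agonist, with log2 fold changes of 1.25, 1.22 and 1.22.

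Against these, *Oas1a*, an oligoadenylate synthetase, had 556, 326 and 333 normalized counts with the agonist and 826, 1084 and 902 with the antibody (log2 fold change -1.20, standard error 0.163, adjusted p = 3.95e-05, edgeR). *Ifi44* had 32.8, 29.8 and 106 against 226, 224 and 231 (log2 fold change -1.94, standard error 0.458, adjusted p = 0.00442, edgeR), and *Oas2* 54.7, 37.9 and 68.9 against 194, 72.7 and 181 (log2 fold change -1.44, adjusted p = 0.0129, edgeR), a call that was lost without agonist replicate 2 or antibody replicate 1. All 9 called genes were higher in Vehicle than in either treated group, by wide margins for *Ifit1* (101940 to 108240), *Rsad2* (193023 to 210339) and *Oas1a* (10731 to 11777). Genes that interferon-gamma induces gave 1 call in 18, against 8.1% of all genes (median 0.06). The false discovery rate was passed by 5 higher with the agonist and 3 higher with the antibody. The called gene was the chemokine *Cxcl10*, with 11881, 13455 and 12819 against 4898, 4900 and 5006 normalized counts (log2 fold change 1.37, standard error 0.0582, adjusted p = 1.06e-10, edgeR).

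Promoters of called interferon-stimulated genes from both directions are shown side by side because they carry the same kind of motif. The interferon response motif, which reads GAAA, any 2 bases, GAAA, was found on either strand in the 250 bases before the start of 8 of the 17 list members with a promoter, and in 821 of the 27025 promoters (3.04%). The 3 called ones are printed from 5′ to 3′ on the gene's strand with the match in capitals, which is reversed in *Ifit1* and *Rsad2*, where it lies on the other strand.
Ifit1, chr19:34640639-34640888, plus strand: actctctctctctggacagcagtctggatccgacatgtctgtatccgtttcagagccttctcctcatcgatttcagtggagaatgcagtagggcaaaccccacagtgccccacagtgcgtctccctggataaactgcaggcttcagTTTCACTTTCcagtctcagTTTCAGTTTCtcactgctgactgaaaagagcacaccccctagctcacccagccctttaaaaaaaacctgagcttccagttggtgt
Rsad2, chr12:26456453-26456702, minus strand: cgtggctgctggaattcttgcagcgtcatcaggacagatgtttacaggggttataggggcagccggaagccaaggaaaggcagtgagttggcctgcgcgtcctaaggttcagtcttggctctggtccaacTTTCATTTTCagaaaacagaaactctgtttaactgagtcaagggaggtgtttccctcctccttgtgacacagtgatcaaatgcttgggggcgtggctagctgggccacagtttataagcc
Oas1a, chr5:120907526-120907775, minus strand: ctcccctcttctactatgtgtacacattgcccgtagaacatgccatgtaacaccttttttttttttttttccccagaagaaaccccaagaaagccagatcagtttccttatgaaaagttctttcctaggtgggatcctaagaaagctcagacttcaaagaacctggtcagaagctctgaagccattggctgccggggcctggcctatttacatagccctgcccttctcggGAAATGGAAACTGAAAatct
*Ifit1* has 2 matches, *Rsad2* has 1, and *Oas1a* has 2 that overlap. *Ifit1* and *Rsad2* were higher with the agonist and *Oas1a* higher with the antibody.

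Among cytokines that signal through gp130 and their receptors, 6 of 11 members were called higher with the agonist, against 4.88% of all genes. None was called in the other direction, in a list made after the values were seen (median 1.19). *Il6* is given above, and the cytokines *Osm* (log2 fold change 0.06, adjusted p = 0.737) and *Ctf1* (-0.81, adjusted p = 0.57, edgeR) did not pass. *Il11*, a cytokine of stromal cells, had 129, 138 and 128 normalized counts with the agonist and 14, 8.4 and 4 with the antibody, against 92.2, 103 and 105 in Vehicle (log2 fold change 3.88, standard error 0.62, adjusted p = 0.000177, edgeR). *Lif* had 807, 696 and 731 against 78.5, 146 and 132 (log2 fold change 2.65, standard error 0.262, adjusted p = 1.42e-06, edgeR), and *Clcf1* 277, 427 and 318 against 155, 61.2 and 59.9 (log2 fold change 1.88, standard error 0.414, adjusted p = 0.00262, edgeR). 2 receptor chains were the other called members, with log2 fold changes of 1.57 for the oncostatin M receptor *Osmr* (adjusted p = 2.68e-07) and 1.19 for the LIF receptor *Lifr* (adjusted p = 8.2e-07, edgeR).

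Of the EGF receptor and its ligands, also listed afterward, 3 of 7 were called higher with the agonist, against 4.88% of all genes. *Egf*, a gene that the kidney expresses strongly, was the 1 called higher with the antibody. *Egfr* had 9591, 8402 and 9069 normalized counts with the agonist and 2278, 2051 and 2217 with the antibody (log2 fold change 2.05, standard error 0.0819, adjusted p = 5.22e-11, edgeR). The ligand *Ereg* (epiregulin) had 906, 919.9 and 1086 against 107, 173 and 144 (log2 fold change 2.78, standard error 0.63, adjusted p = 0.00328, edgeR), and *Tgfa* a log2 difference of 1.47 (edgeR adjusted p = 0.00725).

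Type 2 immunity was represented by *Il5*, the eosinophil growth factor that group 2 innate lymphoid cells of fat secrete, with 1304, 1082 and 1124 normalized counts with the agonist, 212, 98.7 and 69.5 with the antibody and 155, 153 and 123 in Vehicle (log2 fold change 3.20, standard error 0.355, adjusted p = 4.93e-06, edgeR). The agonist libraries stood apart from both other groups, and 27.1% of the exonic bases of *Il5* also lie in exons of a second gene. *Il33*, the stromal alarmin that activates these cells, had 5242, 5452 and 5246 against 2162, 2226 and 2453 (log2 fold change 1.22, standard error 0.0753, adjusted p = 7.38e-09, edgeR). The transcription factors *Gata3* and *Rora* had log2 fold changes of 1.10 (adjusted p = 1.85e-08) and 1.15 (adjusted p = 1.84e-09, edgeR), while *Il13* did not pass, at 25.7 to 41 against 9.9 to 30.3 normalized counts (adjusted p = 0.594, edgeR). In this list, made after the values were seen, 4 of 8 were called, all higher with the agonist, against 4.88% of all genes.

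**Figure D4:**
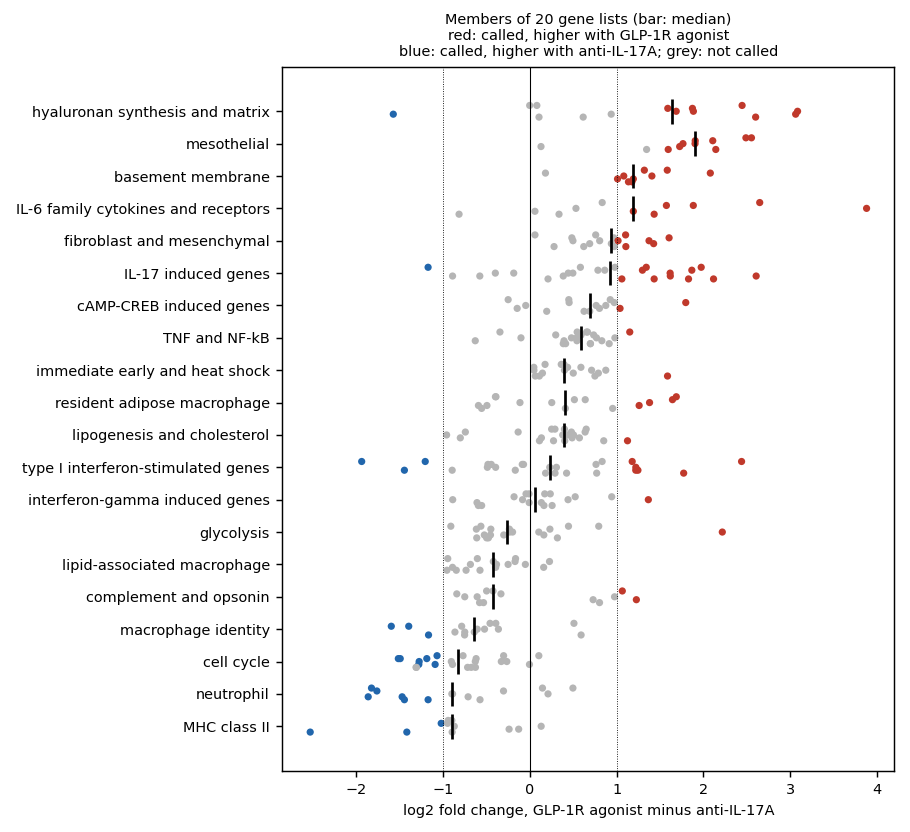
Log2 fold change, GLP-1R agonist minus anti-IL-17A (horizontal axis), of each tested member of 20 gene lists, with the list median as a black bar and dotted lines at 1 and -1. Medians run from 1.90 for mesothelial and 1.64 for hyaluronan genes down to -0.89 for neutrophil and -0.90 for MHC class II genes, and the interferon list has called genes on both sides of zero.

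Set beside Vehicle in the same fit, 5417 genes (31.8%) were called between the agonist and Vehicle and 6051 (35.5%) between the antibody and Vehicle, with the same 3 Vehicle libraries in both. *Ccl2* was lower than in Vehicle with either agent, with log2 fold changes of -2.21 for the agonist (adjusted p = 8.18e-15) and -4.08 for the antibody (adjusted p = 1.41e-17, edgeR). *Ifit1* was lower with both too, by log2 fold changes of -3.43 (adjusted p = 8.59e-16) and -5.87 (adjusted p = 6.83e-18, edgeR). *Lpl* was higher with both, at 2.59 (adjusted p = 2.72e-15) and 3.54 (adjusted p = 8.51e-17, edgeR). For other genes the sides differed. *Gfpt2* was at 2.48 from Vehicle with the agonist (adjusted p = 8.04e-16) and -0.60 with the antibody (adjusted p = 1.39e-08), and *Il17ra* at -0.09 (adjusted p = 0.434) and -1.60 (adjusted p = 4.37e-10, edgeR). *Xist* differed between Vehicle and both treated groups as given above.

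Genes of the agonist's own pathway were read next, and *Glp1r* was not analysed here. Of 21 genes for incretin receptors and cAMP signaling, 1 was called, against 8.1% of all genes, *Adcy7*, the adenylyl cyclase of leukocytes, with 1438, 1764 and 1892 normalized counts with the agonist and 3350, 4772 and 3624 with the antibody (log2 fold change -1.21, standard error 0.193, adjusted p = 0.000189, edgeR). In this list 6 passed the false discovery rate higher with the agonist and 4 higher with the antibody, and the calls became 2 without agonist replicate 1 or antibody replicate 3, 3 without agonist replicate 3 and 7 scaled to macrophage genes. The phosphodiesterase *Pde4b*, which degrades cAMP, was higher with the agonist inside the limit (log2 fold change 0.63, adjusted p = 5.15e-08, edgeR). Genes that cAMP induces through CREB were mostly higher with the agonist than with the antibody (median 0.69). Of 15, 11 passed the false discovery rate in that direction, against 16.1% of all genes, and 2 in the other. Their sum was 9695 to 9827 CPM with the agonist and 6936 to 7072 CPM with the antibody. Both lay below Vehicle, at 12750 to 13130 CPM. Scaled to macrophage genes 8 were called, but only 2 without that scaling, against 4.88% of all genes. These were *Thbs1* and *Crem*, a feedback repressor of this response, which had 12970, 12915 and 12661 against 5436, 6661 and 6646 (log2 fold change 1.04, standard error 0.0774, adjusted p = 5.94e-08, edgeR). *Crem* was inside the limit with DESeq2, with its size factors, with at least 10 counts in every library and without antibody replicate 1.

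Metabolic genes gave few calls, but some were large. *Hk2*, the inducible hexokinase that starts glycolysis, had 6879, 6236 and 6986 normalized counts with the agonist and 1405, 1368 and 1548 with the antibody (log2 fold change 2.22, standard error 0.0994, adjusted p = 1.87e-10, edgeR). It was the only called member of 20 glycolysis genes, and 8.1% of all genes were called. In this list 12 passed the false discovery rate higher with the antibody, such as pyruvate kinase *Pkm* (log2 fold change -0.50, adjusted p = 4.01e-08, edgeR, or 0.04 scaled to macrophage genes), a gene with 15.3% of its exonic bases inside exons of a second one. The median of the list was -0.27, or 0.27 scaled to macrophage genes. *Pdk4*, which keeps pyruvate out of the mitochondrial cycle, had 2357, 2386 and 2164 against 338, 498 and 380.1 (log2 fold change 2.51, standard error 0.153, adjusted p = 6.83e-09, edgeR). *Fasn* (fatty acid synthase) had 2124, 2063 and 2689 against 1035, 872 and 1247 (log2 fold change 1.13, standard error 0.19, adjusted p = 0.000302, edgeR), a call lost without agonist replicate 3 or antibody replicate 2. In the other direction, *Pck1*, the gluconeogenic and glyceroneogenic enzyme of kidney, liver and fat, had 149, 70.4 and 120.4 against 1262, 1140 and 1185 (log2 fold change -3.39, standard error 0.286, adjusted p = 2.43e-07, edgeR), and *Aqp7*, the glycerol channel of adipocytes and kidney, 1213, 1141 and 1116 against 2595, 2634 and 2454 (log2 fold change -1.15, standard error 0.154, adjusted p = 3.51e-05, edgeR). Both are adipocyte markers, the 2 called of 17 adipocyte markers, whose sum was 533 to 549 CPM with the agonist and 579 to 621 CPM with the antibody (median -0.34, or 0.19 scaled to macrophage genes). The kidney genes described below moved with *Pck1* and *Aqp7*, and their part in these differences was not tested.

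Genes of the stress and growth-signal lists gave few calls, a share near the 8.1% of all genes. The called ones were higher with the agonist, but some members passed the false discovery rate in the other direction. *Hmox1* (heme oxygenase-1) had 59107, 58920 and 56540 normalized counts with the agonist and 19083, 21347 and 20929 with the antibody (log2 fold change 1.51, standard error 0.0577, adjusted p = 3.18e-11, edgeR). It was the 1 called of 14 NRF2 genes, of which 6 passed the false discovery rate higher with the agonist and 5 higher with the antibody, among them the peroxiredoxin *Prdx1* at -0.64 (median 0.04). *Sqstm1* (p62), the autophagy receptor, had 125725, 123842 and 121269 against 59502, 61418 and 62172 (log2 fold change 1.02, standard error 0.0247, adjusted p = 1.62e-13, edgeR), with 17.3% of its exonic bases inside exons of a second gene. Its value was inside the limit with DESeq2, with its size factors and with at least 10 counts in every library. The chaperone *Hsph1* had 17066, 18041 and 17682 against 6419, 5449 and 5698 (log2 fold change 1.59, standard error 0.0737, adjusted p = 2.72e-10, edgeR). Of 17 immediate early and heat shock genes, 14 passed the false discovery rate, all higher with the agonist, but only *Hsph1* was called, or 7 genes scaled to macrophage genes (median 0.40). In the list of Shp2 and Ras-ERK genes *Myc* had 15861, 16593 and 15850 against 7012, 7029 and 5933 (log2 fold change 1.27, standard error 0.0615, adjusted p = 4.31e-10, edgeR). *Fosl1* (FRA-1), an ERK-induced AP-1 subunit, had 1240, 1244 and 1210 against 262, 239 and 236 (log2 fold change 2.32, standard error 0.139, adjusted p = 4.54e-09, edgeR), although 57.2% of its exonic bases also lie in exons of a second gene. *Braf* was just past the limit (log2 fold change 1.02, adjusted p = 0.00226, edgeR). It was inside the limit with DESeq2, with its size factors, with at least 10 counts in every library and without agonist replicate 2 or antibody replicate 1 or 2. *Myc*, *Fosl1* and *Braf* were the 3 called of the 27 members, of which 12 passed the false discovery rate higher with the agonist and 3 higher with the antibody. Scaled to macrophage genes, 12 were called. *Ptpn11*, which encodes Shp2, did not pass, with 2543, 2906 and 2474 against 1871, 2017 and 2516 (log2 fold change 0.31, adjusted p = 0.23, edgeR). Neither did *Lep* (log2 fold change -0.20, adjusted p = 0.705) nor *Lepr* (log2 fold change -0.19, adjusted p = 0.584, edgeR).

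Mesothelial genes, which mark the lining of visceral fat, were called higher with the agonist for 9 of 11 members, against 4.88% of all genes (median 1.90). None was called lower, and *Bnc1* (log2 fold change 0.13) and *Rspo1* (log2 fold change 1.35, adjusted p = 0.0602, edgeR) did not pass. The list summed to 393, 404 and 405 CPM in the agonist libraries and 99.1, 99.8 and 105 CPM in the antibody libraries, with Vehicle at 401 to 435 CPM. *Upk1b* (uroplakin 1B) had 1684, 1676 and 1704 normalized counts with the agonist and 241, 336 and 286 with the antibody (log2 fold change 2.55, standard error 0.113, adjusted p = 1.64e-10, edgeR). The keratins *Krt18*, *Krt8* and *Krt19* had log2 fold changes of 2.49 (adjusted p = 1.63e-08), 1.90 (adjusted p = 2.32e-09) and 1.59 (adjusted p = 9.3e-09), *Msln* (mesothelin) 2.14 (adjusted p = 2.81e-08) and the transcription factor *Wt1* 1.73 (adjusted p = 1.99e-05, edgeR). Epithelial genes were among the largest differences of all in the same direction, with *Cldn4*, a tight junction protein, at 364, 501 and 414 against 32.2, 38.3 and 27.2 (log2 fold change 3.71, standard error 0.333, adjusted p = 4.84e-07, edgeR), *Krt15* at 96.6, 115 and 119 against 0, 26 and 4.8, *Krt23* at 231, 158 and 206 against 0, 30.6 and 4.8, and involucrin (*Ivl*) at 129, 218 and 185 against 24.5, 32.1 and 0.

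Of 11 NK cell genes, 4 were called higher with the agonist, against 4.88% of all genes, and none higher with the antibody. *Ncr1*, *Klrb1c*, *Eomes*, *Klrd1* and *Gzma* did not pass, with log2 fold changes of 0.05, 0.56, 0.36, -0.38 and -0.27. *Gzmb* (granzyme B) had 5610, 5662 and 5243 normalized counts with the agonist and 2565, 2499 and 2523 with the antibody (log2 fold change 1.12, standard error 0.0893, adjusted p = 1.27e-07, edgeR), *Prf1* (perforin) 2019, 1787 and 2105 against 911, 742 and 872 (log2 fold change 1.23, standard error 0.201, adjusted p = 0.000228, edgeR), and the chemokine *Xcl1* a log2 difference of 1.22 (edgeR adjusted p = 0.000106; 18.7% of exonic bases overlapping a second gene). *Nkg7*, a granule membrane protein, was higher with the antibody inside the limit (log2 fold change -0.88, adjusted p = 6.83e-08, edgeR). Of 14 T cell genes 1 was called, a share near the 8.1% of all genes, *Cd3g*, a chain of the T cell receptor complex, with 1468, 1607 and 1475 against 3449, 3174 and 3036 (log2 fold change -1.09, standard error 0.102, adjusted p = 7.79e-07, edgeR), and *Cd3e* differed by -0.67 on the log2 scale (adjusted p = 6.29e-05, edgeR). In all, 3 T cell genes passed the false discovery rate higher with the antibody and 3 higher with the agonist, the latter *Cd5* (0.89), *Cd6* (0.62) and *Tcf7* (0.49), so the list had no common direction. The list sums were 534 to 549 and 422 to 455 CPM for NK cells and 796 to 819 and 836 to 860.3 CPM for T cells.

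Genes of male reproductive organs and kidney were present in both groups and gave some of the largest differences. Seminal vesicle genes summed to 2343, 2418 and 2436 CPM in the agonist libraries and 433, 477 and 480.1 CPM in the antibody libraries, 5.18-fold apart, and to 0 to 0.177 CPM in Vehicle. Of 10 such genes 9 were called higher with the agonist, against 4.88% of all genes. *Svs4*, which encodes a secretory protein of semen, had 21769, 21542 and 21535 normalized counts with the agonist, 3138, 3440 and 3192 with the antibody and 0, 0 and 0 in Vehicle (log2 fold change 2.73, standard error 0.131, adjusted p = 3.28e-09, edgeR). The 3 libraries of a group held nearly equal amounts of these transcripts. *Svs5* had 25996, 25951 and 24479 against 5633, 5676 and 5258 (log2 fold change 2.21, adjusted p = 3.48e-08, edgeR).

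Epididymal genes went both ways, with sums of 159.6 to 184 and 224 to 263 CPM. Of 17, 9 were called higher with the antibody, against 3.22% of all genes, and 3 higher with the agonist, against 4.88%. *Pate4*, 1 of these 3, is also a member of the seminal vesicle list. *Adam7*, a sperm-binding metalloprotease of the epididymis, had 0, 0 and 0 normalized counts with the agonist and 566, 458 and 557 with the antibody, at least 163-fold higher with the antibody against a floor of 3 counts per library. *Defb22*, *Rnase9* and *Gpx5*, also epididymal, were at least 89.8-fold, 41.7-fold and 34.9-fold higher with the antibody. *9530053A07Rik* had the opposite direction, with 701, 896 and 1098 against 215, 96.4 and 102 (log2 fold change 2.69, standard error 0.239, adjusted p = 4.38e-07, edgeR). Spermatid genes divided too, with *Smcp*, of the sperm mitochondrial capsule, at 1752, 1760 and 1900 against 5139, 4760 and 4724 (log2 fold change -1.43, adjusted p = 9.72e-07) and protamine *Prm2* at 4555 to 4743 against 9612 to 10517 (log2 fold change -1.11, adjusted p = 5.07e-05), both higher with the antibody, but the transition protein *Tnp1* at 1282, 1223 and 1240 against 512, 402 and 422 (log2 fold change 1.49, adjusted p = 9.87e-05, edgeR), higher with the agonist.

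Prostate genes, listed after the values were seen, were higher with the agonist for all 5 members, with sums of 103 to 112 and 12.8 to 20.2 CPM. *Tcaf3* had 286, 165 and 324 normalized counts with the agonist and 0, 0 and 0 with the antibody, at least 114-fold higher with the agonist, and *Defb50* 385, 316 and 398 against 21, 1.5 and 12. Kidney tubule genes, likewise listed afterward, summed to 5.82, 9.72 and 11.7 CPM in the agonist libraries and 207, 209.6 and 219.9 CPM in the antibody libraries. Of 13, 11 were called higher with the antibody, against 3.22% of all genes. *Umod* (uromodulin), the main protein of urine, with 19.5% of its exonic bases inside exons of a second gene, had 59.7, 84 and 168 against 1976, 2045 and 2101 (log2 fold change -4.29, standard error 0.715, adjusted p = 0.00046, edgeR), *Slc12a1*, the cotransporter of the loop of Henle, 9, 0 and 55.9 against 664, 974 and 1084 (log2 fold change -5.32, adjusted p = 0.00383, edgeR; not called by DESeq2), and *Miox*, the inositol oxygenase of the proximal tubule, 3, 0 and 7 against 697, 705 and 609 (log2 fold change -7.49, adjusted p = 0.000395, edgeR).

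Other genes among the 12 largest in each direction were *9530002B09Rik*, *Chst4* and *Nxph1* higher with the agonist and *Acsm1*, *Apob*, *Dmbt1*, *Itgb2l*, *Avpr2*, *Oxgr1* and *Mep1a* higher with the antibody. The last 7 had at most 1 normalized count in any agonist library and were at least 24.1-fold to 33.2-fold higher with the antibody, although DESeq2 did not call *Acsm1*, *Apob* or *Avpr2*, and *Avpr2* was not called when any 1 agonist library was left out. The first 3 had 303 to 419 against 4 to 27.3, 68.7 to 173 against 0 to 15.2 and 84.7 to 129 against 0 to 27.2 normalized counts, and the call of *Nxph1* was lost when agonist replicate 1 or 2 or antibody replicate 1 or 2 was left out. *Apob* ranged from 19.1 to 212 normalized counts among the antibody libraries, and 81.3% of the exonic bases of *Avpr2* also lie in exons of a second gene.

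**Figure D5:**
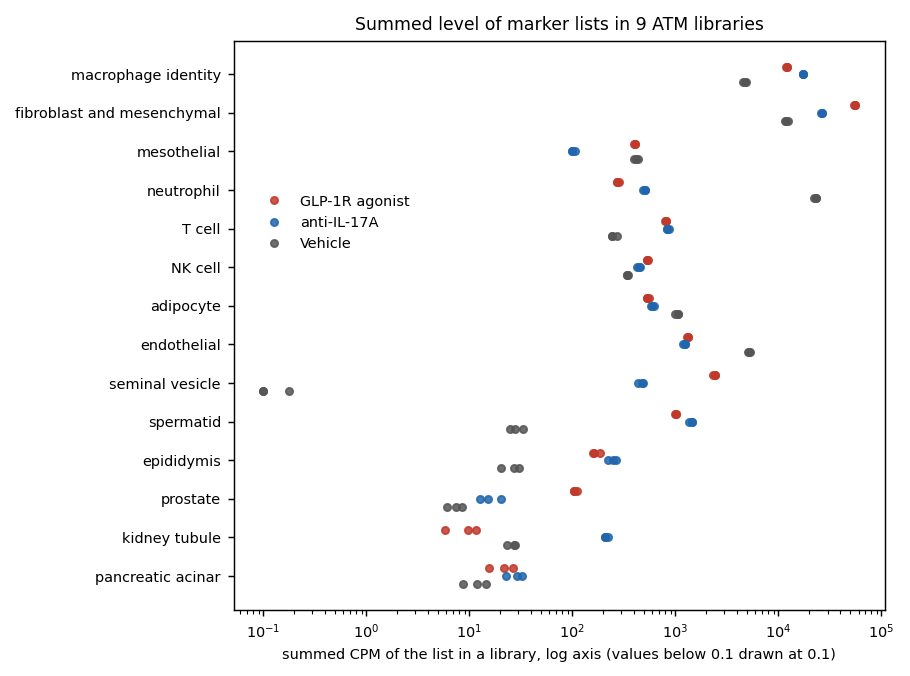
Summed CPM of 14 marker lists (horizontal log axis) in the 3 libraries each of the GLP-1R agonist, anti-IL-17A and Vehicle groups; every point is a library, and sums below 0.1 are drawn at 0.1. Fibroblast, mesothelial, seminal vesicle and prostate sums are higher with the agonist, macrophage, neutrophil and kidney sums higher with the antibody, and the seminal vesicle sum is near zero in Vehicle.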

How the data were processed

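F4/80+ ATM libraries of 5 groups, 3 each, were used, grouped by their labels. Alignment by the authors was to mm10 with STAR 2.7.2a, followed by unstranded counting on GENCODE M22 with featureCounts 2.0.1 (minimum mapping quality 10), and a read on overlapping genes was counted for each. The deposited values are raw counts per gene, before normalization; the smallest gene total over 15 libraries was 54, so rare genes had been left out by an unstated filter. The labels call the 3 libraries of a group biological replicates from 3 mice and give 1 batch. These libraries were nearly equal even in RNA of other tissues. The p-values and standard errors measure only the spread among libraries of the same group, estimated over all 5 groups together, and it may be technical.

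All 15 libraries entered a robust quasi-likelihood model in edgeR 4.0.16 (R 4.3.3) with TMM scaling, filterByExpr removed 0 genes, and the result is a 2-sided contrast of GLP-1R agonist minus anti-IL-17A, with Benjamini-Hochberg adjustment over all 17059 genes. A gene was called below a false discovery rate of 0.05 with an absolute log2 fold change above 1. Standard errors were taken from the F statistic. Where all libraries of a group held at most 3 counts, a bound against 3 counts per library is given, which covers counting error only. Lists are described by counts and medians, with no test. Exon overlap and coordinates are from GENCODE M21 (GRCm38), which matched 16427 genes by symbol, and promoters from RefSeq. Reads of near-identical paralogs (Svs, Defb, H2, Ccl) may have been divided between copies or dropped by the mapping filter.

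Named genes were the 12 largest in each direction (mean of at least 50 counts, libraries not overlapping), the 6 most abundant called in each direction, up to 4 genes per list by adjusted p, and genes of the agents and sort. Some genes that the rule names are not reported here. Others were chosen after their values were seen, and 7 lists were added then. The members and all lists were chosen with earlier results of these data known. Alternatives were DESeq2 1.42.0, its size factors in edgeR, other count filters, only the 6 libraries, the replicate block, leaving out each library, no fold-change limit, a test against a log2 fold change of 1, and scaling to macrophage genes, chosen after the values were seen. On simulated counts of 17059 genes for this comparison, edgeR recovered 74 of 100 genes changed by a log2 fold of 1.5 and 91 of 100 changed by 3, with 8 false calls; DESeq2 recovered 82 and 96 with 30. BM libraries were not used here.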

Additional observations from a re-analysis of the deposited data

How the results depend on the processing

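The fold-change rule and the scaling moved the number of calls most among the alternatives run. Without a fold-change limit 5084 genes passed, 2752 higher with the agonist and 2332 higher with the antibody. A test against a log2 fold change of 1 called 310, of which 218 were higher with the agonist and 92 higher with the antibody. Scaling to the macrophage identity genes, chosen after the values were seen, called 3126, with 2921 and 205, of which 1038 were shared with the 1382. By construction a rescaling moves all genes together. Under that scaling 8 of the 185 genes followed one by one turned in sign. Sign changes among the other genes were not counted. The log2 fold changes of the 8 became 0.33 for *Lep*, 0.34 for *Lepr*, 0.075 for *Cd68*, 0.012 for *Lyz2*, 0.14 for *Cd36*, 0.04 for *Igf1*, 0.036 for *Pkm* and 0.035 for *C1qc*. The other counts were within 1.5 times. DESeq2's size factors gave 1369 calls (748 and 621), DESeq2 1583 (835 and 748), at least 10 counts in every library 1074 (663 and 411) and the 6 libraries alone 1595 (832 and 763). Leaving out each library in turn gave 1215 to 1365 calls, with 752 to 873 higher with the agonist and 460 to 492 higher with the antibody. Replicate numbers did not pair the samples, since the deviations of same-numbered libraries correlated at -0.00476, -0.00867 and 0.0345. The fit with the replicate block called 1321, of which 1281 were shared. Of 185 genes followed one by one, 122 had the same call under every alternative.

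Depth limits the rare transcripts. Below 100 normalized counts the median coefficient of variation was 51.8% and 52.5%, and in 122 called genes every library of one group held at most 3 counts (62 with the agonist, 60 with the antibody), so that their size is known only as a bound. F4/80+ sorting leaves other cells, and the groups differ in their amount, so the difference of a gene made by several cell types was not assigned to one.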

Other observations

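Further lists were measured in the same comparison. Over all genes 8.1% were called, 4.88% higher with the agonist and 3.22% higher with the antibody. *Cldn5*, a tight junction protein, was the 1 endothelial gene called of 12, with 6054, 5834 and 5561 normalized counts with the agonist against 2945, 2641 and 2885 with the antibody (log2 fold change 1.04, standard error 0.0703, adjusted p = 1.96e-08, edgeR). It was not called with DESeq2, with its size factors, with at least 10 counts in every library or without antibody replicate 2. Dendritic cell genes gave 1 call of 12 higher with the agonist, *Zbtb46*, and 2 higher with the antibody, *Batf3* and *Cd209a*. The checkpoint list gave *Pdcd1lg2* higher with the agonist and *Sirpa* higher with the antibody among 14. No gene was called among 11 B and plasma cell genes, 12 mast cell and eosinophil genes or 5 erythroid genes by edgeR, and 1, 0 and 1 of them passed the false discovery rate higher with the agonist and 2, 4 and 1 higher with the antibody. Of 17 insulin signaling genes 1 was called, *Pck1*, and of 14 NRF2 genes 1, *Hmox1*. *Inhba*, which encodes an activin subunit, was the 1 gene called of 7 in the female reproductive tract and ovary list, higher with the agonist. Pancreatic acinar genes were at trace levels, 15.6 to 26.7 CPM with the agonist and 22.6 to 32.5 CPM with the antibody, and 5 of 24 were called, 3 higher with the agonist.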
